A study of Mus musculus with 18 samples.

Results

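The genes described here are 36 mouse genes of transforming growth factor beta (TGF-beta) and bone morphogenetic protein (BMP) signalling, taken by gene symbol from a table of 21647 genes. The BMP arm has 18 of them, the TGF-beta arm has 17, and Smad4 serves both arms. RNA was sequenced from cells labelled as endothelial, isolated from the aorta of wild-type (WT) mouse embryos and of Tg737orpk/orpk embryos (orpk), which carry an insertion in Ift88, the gene of an intraflagellar transport protein that primary cilia need to form. In each genotype, cells starved of serum for 24 h were either kept static or exposed to laminar flow for 48 h at 2 dyn/cm2 (low shear) or 30 dyn/cm2 (high shear), on gelatin-coated channel slides and with no other agent named. No time in culture is given here for the static cells, so a difference in time, if any, cannot be told apart from flow. Each of the 6 groups had 3 libraries, 18 in all. The labels do not say whether the 3 libraries of a group came from separate cultures or embryos, or how many embryos gave each cell population. Every p-value given here therefore speaks of the variation among the sequenced libraries, part of which may be technical, and the Ift88 mutation cannot be told apart from other differences between the WT and orpk populations.

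Ligands of this superfamily are secreted as dimers and bind a complex of type I and type II receptor kinases, which phosphorylates receptor-activated Smad proteins. Smad2 and Smad3 carry the signal of TGF-beta and activin, Smad1, Smad5 and Smad9 carry that of BMPs, and both sets enter the nucleus with Smad4 to regulate target genes, among them the Id genes on the BMP side. Both arms are known in vascular endothelium for their part in vessel stability and in the response to flow, and the inhibitory Smads, Smad6 and Smad7, are themselves target genes that act back on the receptors.

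Each library held between 13626480 and 17387553 reads assigned to genes. The test (edgeR's quasi-likelihood test, with p-values adjusted by Benjamini and Hochberg over all genes) covered 13058 genes, and 35 of the 36 were among them: Bmp2, a BMP ligand, had 0 reads in all 18 libraries, where 3 reads would be between 0.173 and 0.220 CPM (the usual unit of read counts relative to library size, here the normalised size). Ift88 was lower in the orpk libraries in every condition, with mean levels of 7.81, 7.73 and 6.90 CPM against 15.6, 14.5 and 13.3 in WT cells (static, low and high shear; log2 fold changes -0.99, -0.91 and -0.95; adjusted p at most 8.68e-11). Several defining endothelial markers were absent or near absent: Cdh5, Tie1 and Erg had 0 reads in all 9 WT libraries, and Cldn5 had 0 reads in all 9 orpk libraries. The summed level of 12 endothelial markers lay between 25.3 and 53.8 CPM in WT libraries and between 88.2 and 142 CPM in orpk libraries, and in every group most of it was Flt1 alone, with group means between 15.5 and 40.4 CPM in WT and between 80.5 and 127 CPM in orpk cells. Egfl7, the next in level in WT cells, was lower in orpk cells (at most 4.25 CPM as a group mean, against at least 9.25 in WT). Of the 9 endothelial markers tested, however, 7 were higher and 2 lower in orpk cells at each shear. Group means over 1 CPM were found for 7, 6 and 5 of the 12 in orpk cells (static, low and high shear). In WT cells they were found for 3, 2 and 2. The summed level of 8 fibroblast markers lay between 705 and 1147 CPM in WT and between 12718 and 22240.0 CPM in orpk libraries, and that of 8 smooth muscle and pericyte markers between 51.9 and 134 in WT and between 1507 and 4431 in orpk libraries. The keratin genes Krt8 and Krt18 had group means between 140.2 and 197 CPM in WT cells and below 1 CPM in orpk cells, and 8 epithelial and mesothelial markers summed to between 352 and 571 CPM in WT and between 157 and 301 CPM in orpk libraries. Not all of these markers were lower in orpk cells. Of the 7 tested, 2 were higher and 5 lower in static cells, 3 and 4 at low shear, and 1 and 4 at high shear. Of 7 macrophage and leukocyte markers, which summed to at most 57.4 CPM, Adgre1 had 0 reads throughout. Replicate 1 of WT low shear and replicate 2 of orpk low shear stood apart from their group, with a chi-square value of at least 3.39 per degree of freedom in each pair that held them, against at most 2.33 in the other pairs of a group.

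**Figure D1:**
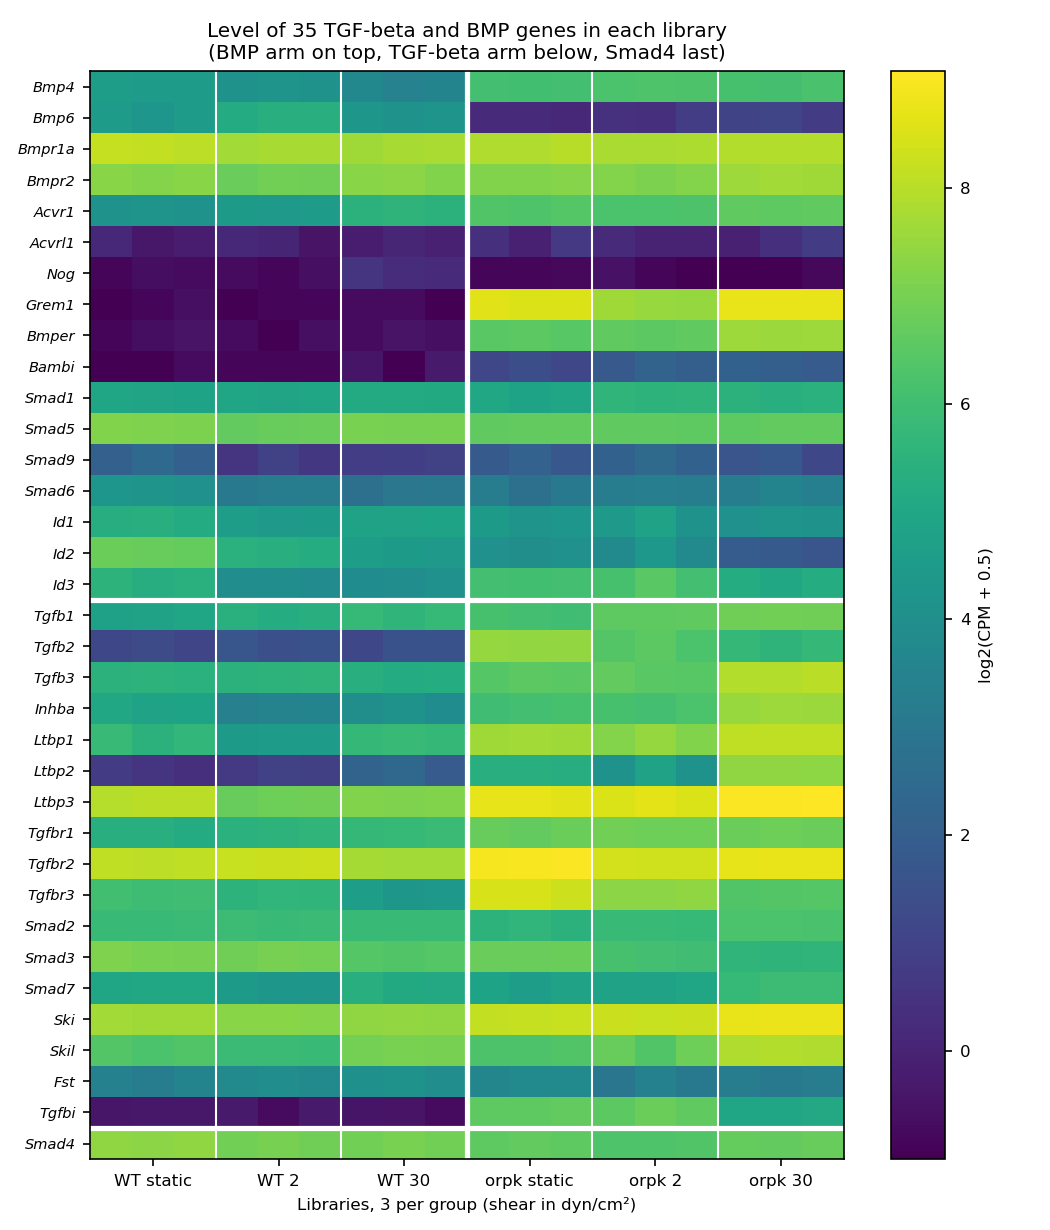
Level of the 35 tested genes, on a colour scale of log2(CPM + 0.5), in each of the 18 libraries (columns, 3 per group; rows, genes of the BMP arm on top, of the TGF-beta arm below, and Smad4 last). The replicates of a group have like colours, and the rows of Grem1, Bmper, Tgfb2 and Tgfbi change from dark in WT to bright in orpk libraries.

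In WT cells, 9 of the 17 tested genes of the BMP arm fell under each shear. At low shear against static, the transcripts of the targets Id1, Id2 and Id3, of the inhibitory Smad6 and of the receptor-activated Smad9 all fell, Id2, Id3, Smad6 and Smad9 by more than 1 on the log2 scale. Of the 35 tested genes, 18 fell, or 51.4%, beside 30.3% of all tested genes, and 6 rose, or 17.1%, beside 32.6% of all genes. The share that fell was thus above that over all genes and the share that rose was below it. In the BMP arm 9 of 17 fell and 2 rose, and the median log2 change was -0.41 over the 15 genes with more than 3 reads in both groups, where the median of all tested genes was 0.01. When libraries were scaled by their totals instead, 17 of the 35 fell and 10 rose. Without replicate 1 of low shear, 17 fell and 6 rose. Marker genes also moved with flow in WT cells. Of 9 tested endothelial markers 2 were lower at low shear, and the median log2 change was 0; Flt1 went from 40.4 CPM in static to 15.5 at low and 16.4 at high shear, and Egfl7 from 10.9 to 9.87 and 9.25. Over the static, low shear and high shear libraries, the summed epithelial and mesothelial markers lay between 553 and 571, between 352 and 376 and between 427 and 453 CPM. The fibroblast markers lay between 972 and 1035, between 705 and 729 and between 1135 and 1147 CPM, and the smooth muscle and pericyte markers between 51.9 and 54.9, between 65.7 and 73.7 and between 121 and 134 CPM. The macrophage and leukocyte markers lay between 50.2 and 57.4, between 49.7 and 53.0 and between 17.5 and 19.4 CPM. The part of these markers in the changes described here was not tested. In bulk RNA, fewer cells of a type and less RNA per cell cannot be told apart.

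At high shear against static, 17 of the 35 genes fell in WT cells (48.6%, beside 32.7% of all genes) and 9 rose (25.7%, beside 34.1% of all genes). In the BMP arm 9 fell and 3 rose. Between low and high shear, 15 of the 35 rose (42.9%, beside 15.9% of all genes) and 8 fell (22.9%, beside 17.2%), in the BMP arm 6 and 4 and in the TGF-beta arm 9 and 4, so that the share that rose with the higher shear was well above the share over all genes.

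Id2, one of the Id proteins that bind and block basic helix-loop-helix transcription factors, showed the largest fall of the BMP arm at high shear. Its level was 112, 106 and 103 CPM in the 3 static WT libraries, 43.0, 39.5 and 37.8 CPM at low shear and 24.3, 21.8 and 21.2 CPM at high shear. The 3 conditions did not overlap, static being highest and high shear lowest, and the log2 fold changes were -1.42 ± 0.07 (SE) at low shear and -2.26 ± 0.08 at high shear (adjusted p = 5.69e-14 and 2.27e-17). Id3 was at 45.2, 38.8 and 41.4 CPM in static, 14.8, 14.7 and 14.1 CPM in low shear and 14.4, 15.0 and 16.5 CPM in high shear libraries. The levels of Id3 under both shears were alike and lay below those of every static library, with log2 changes of -1.53 ± 0.11 and -1.45 ± 0.11 (adjusted p = 4.09e-10 and 5.89e-10). Id1 was at 37.9, 39.1 and 36 CPM in static, 24.4, 20.8 and 21.8 CPM in low shear and 27.4, 27.5 and 28.5 CPM in high shear libraries. Its fall was smaller (-0.75 ± 0.10 and -0.44 ± 0.10, adjusted p = 8.96e-07 and 0.000387), with the low shear libraries lowest and no overlap with static.

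Smad6, which inhibits BMP receptor signalling and is itself a BMP target, was at 18.9, 17.8 and 16.4 CPM in static WT libraries, 7.99, 9.19 and 8.84 CPM at low shear and 6.05, 7.43 and 7.61 CPM at high shear. All 6 flow libraries were below the static ones, with log2 changes of -1.03 ± 0.10 and -1.33 ± 0.10 (adjusted p = 5.63e-12 and 9.31e-15). Smad9, which had the lowest mean level per kilobase of exon of the 3 BMP Smads in every group, was at 3.79, 4.90 and 3.74 CPM in static, 0.978, 1.5 and 1.03 CPM in low shear and 1.26, 1.33 and 1.43 CPM in high shear libraries. It fell by 1.82 at low and by 1.61 at high shear on the log2 scale (SE 0.21 and 0.20; adjusted p = 7.28e-10 and 4.86e-09), and the groups under flow did not overlap static. Of the other BMP Smads, Smad1 did not pass the test at low shear (0.04) and rose at high shear (0.27). Smad5 fell at low shear (-0.41), and its small difference at high shear (-0.11) was not called without replicate 1 of static (-0.09, adjusted p = 0.0641), without replicate 3 of high shear (-0.10, adjusted p = 0.0504) or when libraries were scaled by their totals (-0.02).

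The sequences upstream of Smad6 and Smad9 are shown because these Smads fell by more than 1 on the log2 scale in WT cells at low shear. They come from RefSeq's promoter windows for GRCm38.p6, which run from 250 bases before to 50 after each gene's start and matched 24 of the 36 genes with 28 windows. The windows were searched on both strands for GGCGCC and GGAGCC, 2 forms of a GC-rich element bound by BMP Smads, and for the palindrome GTCTAGAC, which holds the Smad-binding box on both strands. Capitals mark the matches, none of which overlaps another. The stretch for Smad6 lies on the minus strand of chr9:64022056-64022309 and ends with the palindrome just past the start, and that for Smad9 on the plus strand of chr3:54755332-54755581.
Smad6: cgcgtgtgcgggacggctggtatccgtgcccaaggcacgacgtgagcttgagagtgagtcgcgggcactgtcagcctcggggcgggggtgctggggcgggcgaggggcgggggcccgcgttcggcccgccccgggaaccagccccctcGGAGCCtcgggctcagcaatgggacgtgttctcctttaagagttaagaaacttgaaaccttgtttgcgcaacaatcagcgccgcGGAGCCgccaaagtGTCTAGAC
Smad9: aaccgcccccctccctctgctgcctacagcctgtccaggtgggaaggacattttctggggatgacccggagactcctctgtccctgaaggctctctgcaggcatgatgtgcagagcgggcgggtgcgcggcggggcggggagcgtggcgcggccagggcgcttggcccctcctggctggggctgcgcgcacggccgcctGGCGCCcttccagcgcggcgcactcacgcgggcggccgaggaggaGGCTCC
Among the 28 windows the palindrome was found in that of Smad6 alone, where it straddles the start (3.57%, beside 0.213% of all 32851 windows). GGCGCC was found in 10 of the 28 windows (35.7%, beside 11.9% of all), and GGAGCC in 15 (53.6%, beside 30.8% of all). The windows set beside them were not matched for base composition, and its part in these shares was not tested. G and C made up 66.5% of the stretch shown for Smad6 and 73.2% of that for Smad9. In the stretch shown for Smad9, the match to GGAGCC is on the other strand and reads GGCTCC. A match describes letters in a window and says nothing of binding in these cells.

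**Figure D2:**
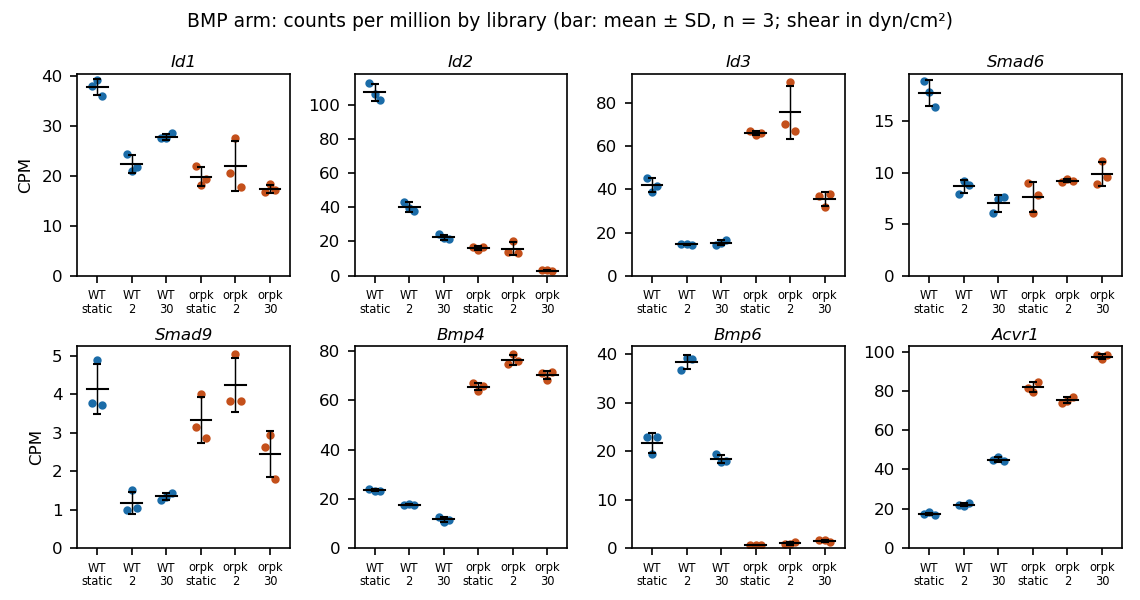
Level (CPM, linear axis from 0) of 8 genes of the BMP arm in each library, by genotype and shear (0, 2 and 30 dyn/cm2); points are libraries, and black bars the mean ± SD of 3. In WT cells Id1, Id2, Id3, Smad6, Smad9 and Bmp4 are highest in the static libraries, while in orpk cells Id2 and Id3 are lowest at high shear.

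Among BMP ligands and receptors, WT cells showed changes in both directions. Bmp4, a secreted ligand, was at 24.1, 23.2 and 23.1 CPM in static, 17.3, 18 and 17.6 CPM in low shear and 12.7, 10.7 and 11.2 CPM in high shear libraries. It fell step by step with no overlap between conditions (-0.41 ± 0.06 and -1.02 ± 0.07, adjusted p = 5.68e-07 and 2.48e-16). Bmp6, another ligand, was at 22.8, 19.4 and 23.0 CPM in static, 36.8, 39.3 and 39.1 CPM in low shear and 19.4, 17.8 and 18 CPM in high shear libraries. It rose at low shear (0.81 ± 0.07, adjusted p = 6.22e-14) and was slightly lower than static at high shear (-0.25 ± 0.07, adjusted p = 0.00352), where the libraries overlapped and scaling by library totals ended the call (-0.16, adjusted p = 0.0549). Acvr1, the type I receptor ALK2, was at 17.4, 18.1 and 17.0 CPM in static, 21.8, 21.4 and 23.0 CPM in low shear and 44.6, 46.3 and 44.2 CPM in high shear libraries. It rose at both shears without overlap (0.34 ± 0.06 and 1.37 ± 0.06, adjusted p = 1.28e-05 and 1.21e-23). The type I receptor Bmpr1a fell by a like amount at both shears (-0.40 and -0.41), and the type II receptor Bmpr2 fell at low shear only as far as the test goes (-0.38, against 0.00 at high shear). Acvrl1, the endothelial type I receptor ALK1, had at most 0.598 CPM in any WT library and did not pass the test in either comparison. Of the extracellular antagonists, Nog (noggin) had 5 reads over the 3 static, 6 over the low shear and 41 over the high shear libraries. This is a log2 difference at high shear of 2.78 ± 0.52 from a very low level. Nog passed the filter on low counts only through the high shear WT libraries, so no p-value is given for it. It is among the BMP genes counted above as rising at high shear, against static and against low shear. Grem1, Bmper and Bambi had at most 10 reads in any WT group.

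In the TGF-beta arm of WT cells at low shear, 8 of 17 genes fell (47.1%, beside 30.3% of all genes). Another 4 rose (23.5%, beside 32.6%). At high shear 7 fell (41.2%, beside 32.7%) and 6 rose (35.3%, beside 34.1%), the latter share near that over all genes. The median log2 changes were -0.08 and -0.04, beside 0.01 and 0.00 over all tested genes. The ligand Tgfb1 was at 27.0, 27.6 and 30.2 CPM in static, 42.1, 37.4 and 39.9 CPM in low shear and 53.2, 48.3 and 53.7 CPM in high shear libraries. It rose step by step with no overlap (0.49 ± 0.06 and 0.87 ± 0.06, adjusted p = 2.31e-09 and 7.88e-17). Tgfb3 did not pass the test at low shear (0.04) and was slightly lower at high shear (-0.20, or -0.12 with adjusted p = 0.0786 when scaled by library totals). It was at 43.9, 45.3 and 43.3 CPM in static, 43.6, 45.1 and 47.0 CPM in low shear and 41.0, 36.8 and 37.4 CPM in high shear libraries. Tgfb2 was at 1.76, 1.96 and 1.67 CPM in static, 2.77, 2.28 and 2.39 CPM in low shear and 1.8, 2.39 and 2.43 CPM in high shear libraries. Its low shear libraries lay above static (0.47, adjusted p = 0.0508), which just missed the threshold; it passed with library totals, with no filter on low counts, with the compared groups alone and without replicate 2 of low shear. At high shear Tgfb2 overlapped static and had no call. Inhba, whose product forms activin A, was at 31.9, 27.3 and 28.5 CPM in static, 9.94, 10.8 and 11.2 CPM in low shear and 15.5, 17.1 and 14.3 CPM in high shear libraries. Its static libraries were highest and its low shear libraries lowest, without overlap (-1.46 ± 0.08 and -0.90 ± 0.08, adjusted p = 4.4e-19 and 7.59e-14).

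The latent TGF-beta binding proteins, which tether latent complexes in the extracellular matrix, differed from each other in WT cells. Ltbp3 was at 248, 265 and 263 CPM in static, 105, 116 and 118 CPM in low shear and 143, 140.0 and 143 CPM in high shear libraries, and fell at both shears (-1.19 ± 0.04 and -0.86 ± 0.04, adjusted p = 9.41e-24 and 1.03e-19). Ltbp1 was at 56.6, 44.3 and 50.1 CPM in static, 21.8, 22.6 and 22.8 CPM in low shear and 52.4, 56.0 and 51.4 CPM in high shear libraries. It was thus low at low shear alone: it fell there by 1.17 on the log2 scale (adjusted p = 2.27e-09), did not pass the test at high shear (0.08, adjusted p = 0.41), and rose from low to high shear by 1.25 ± 0.09 (adjusted p = 2.33e-09). Ltbp2, which binds matrix but is not known to hold latent TGF-beta, was at 1.24, 0.980 and 0.805 CPM in static, 1.14, 1.44 and 1.36 CPM in low shear and 4.13, 4.61 and 3.25 CPM in high shear libraries, and rose at high shear (1.99 ± 0.35, adjusted p = 5.67e-05) from a low level.

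Of the TGF-beta receptors in WT cells, the co-receptor betaglycan, Tgfbr3, was at 65.4, 60.7 and 63.0 CPM in static, 45.2, 48.8 and 47.7 CPM in low shear and 23.6, 19.5 and 20.0 CPM in high shear libraries. It fell step by step without overlap (-0.42 ± 0.05 and -1.59 ± 0.06, adjusted p = 4.44e-09 and 3.32e-25). The type I receptor Tgfbr1 rose at both shears (0.24 and 0.50), and the type II receptor Tgfbr2 was slightly higher at low (0.17) and lower at high shear (-0.41), all past the test. Smad3, the DNA-binding effector, was at 141, 134 and 129 CPM in static, 117, 128 and 126 CPM in low shear and 85.4, 80.4 and 85.6 CPM in high shear libraries. Its fall at high shear was -0.68 ± 0.04 (adjusted p = 2.69e-17), whereas the small difference at low shear (-0.12) was no longer called without replicate 1 of static (-0.08, adjusted p = 0.119), without replicate 1 of low shear (-0.08, adjusted p = 0.0877) or when scaled by library totals (-0.01). Smad2 did not pass the test in either comparison, and Smad4, the common partner, was lower at both shears (-0.43 and -0.40).

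Skil and Smad7, which are negative regulators and targets of TGF-beta signalling, were lowest at low shear in WT cells. Skil was at 83.4, 74.9 and 81.8 CPM in static, 58.5, 58.4 and 55.1 CPM in low shear and 125, 132 and 128 CPM in high shear libraries. It fell at low shear (-0.48 ± 0.10) and rose above static at high shear (0.68 ± 0.09), with no overlap (adjusted p = 0.000693 and 1.31e-05). Smad7 was at 30.8, 31.7 and 31.9 CPM in static, 21.9, 19.7 and 19.8 CPM in low shear and 39.9, 34.6 and 33.6 CPM in high shear libraries. It fell at low shear (-0.62 ± 0.07, adjusted p = 7.27e-10), and its small rise at high shear (0.19, adjusted p = 0.0097) was lost without replicate 1 of high shear (0.11, adjusted p = 0.148). Ski, a corepressor related to Skil, fell at both shears (-0.39 and -0.24), and Fst (follistatin), which traps activin, rose at both (0.47 and 0.67). Tgfbi, a matrix protein named for its induction by TGF-beta, had at most 0.326 CPM in any WT library and no call.

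**Figure D3:**
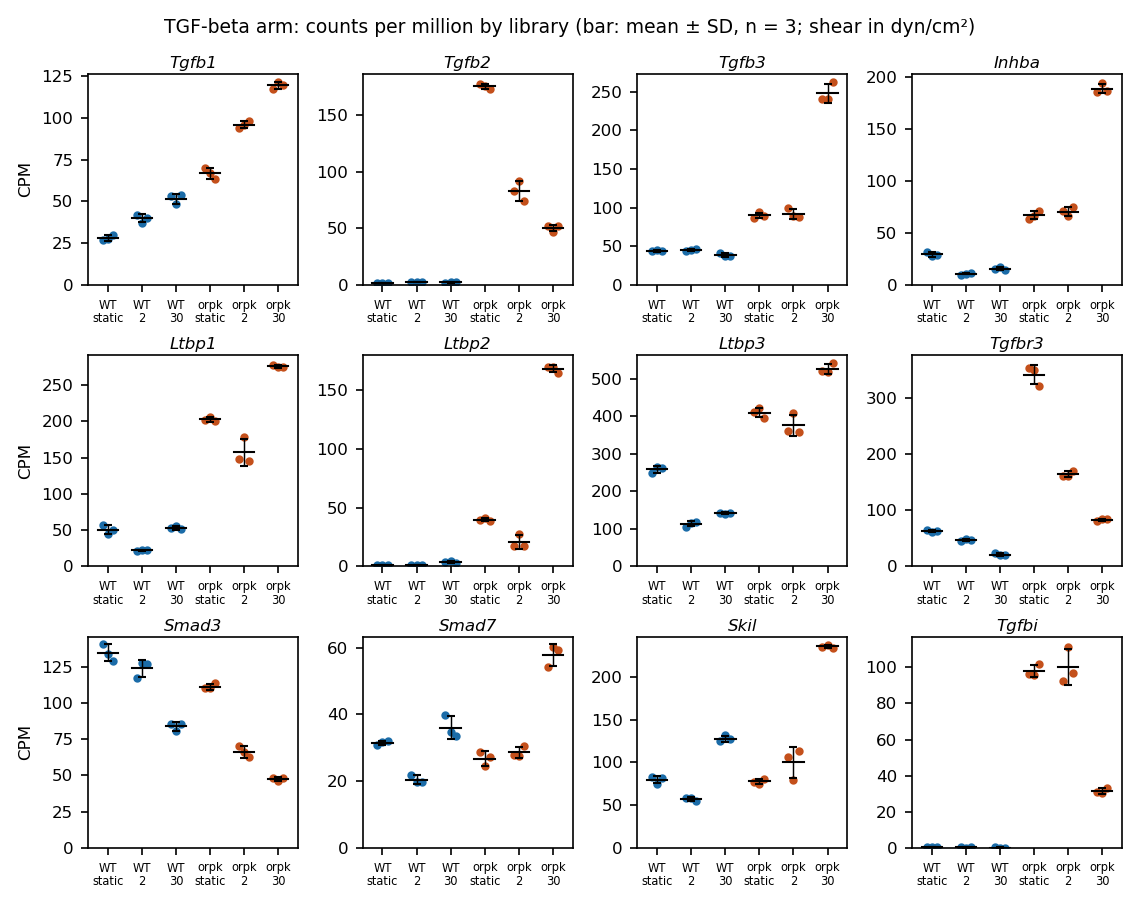
Level (CPM, linear axes from 0) of 12 genes of the TGF-beta arm in each library, by genotype and shear (0, 2 and 30 dyn/cm2); points are libraries, and black bars the mean ± SD of 3. Tgfb1 rises and Tgfbr3 and Smad3 fall from static to high shear in both genotypes, while Tgfb3 and Inhba are highest in the orpk libraries at high shear.

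In orpk cells, genes of both arms moved in both directions at low shear, and more rose than fell at high shear. Tgfb3, Inhba, Ltbp2, Skil, Smad7, Bmper and Bmp6 each rose by more than 1 on the log2 scale at high shear, and Id2, Tgfb2, Tgfbr3, Smad3 and Tgfbi each fell by more than 1. At low shear against static, 10 of the 35 genes rose (28.6%, beside 30.9% of all genes) and 12 fell (34.3%, beside 31.1%), shares near those over all genes. In the BMP arm 6 rose and 3 fell, and in the TGF-beta arm 4 rose and 8 fell. At high shear against static, 18 rose (51.4%, beside 36.5% of all genes) and 9 fell (25.7%, beside 33.3%). From low to high shear, 17 rose (48.6%, beside 32.1%) and 10 fell (28.6%, beside 31.5%), in the BMP arm 5 and 6 and in the TGF-beta arm 11 and 4. In the TGF-beta arm alone, 10 of 17 rose and 6 fell at high shear against static, with a median log2 change of 0.44 beside 0.02 over all tested genes. In the BMP arm 8 rose and 3 fell, with a median of 0.14 over 16 genes.

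Scaled by library totals, 18 of the 35 rose and 9 fell at low shear in orpk cells, and 16 rose and 11 fell from low to high shear. Without replicate 2 of low shear, 9 rose and 12 fell at low shear against static, and 17 rose and 8 fell from low to high shear. Marker genes of other cell types also moved with flow in these cells: the summed fibroblast markers lay between 21769.7 and 22240.0 CPM in static, between 12718 and 15377 at low shear and between 14323 and 15229 at high shear. All 8 fibroblast markers passed the test from low to high shear, 5 lower and 3 higher with a median log2 change of -0.87: Pdgfra went from 1775 CPM in static to 539 and 149, Col3a1 from 8155 to 5874 and 2842, and Col1a1 from 10140.1 to 6053 and 8845. The summed smooth muscle and pericyte markers were higher with each condition, from between 1507 and 1631 to between 2032 and 2252 and between 4335 and 4431. Their part in the changes below was not tested.

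With all libraries, none of the 3 Id genes was called lower at low shear in orpk cells, and 2 of 3 fell at high shear. Id2 was at 16.8, 15.1 and 16.7 CPM in static, 13.7, 20.1 and 13.2 CPM in low shear and 3.30, 3.07 and 2.64 CPM in high shear libraries. Only the high shear libraries stood apart, below all others (-2.42 ± 0.18 against static, adjusted p = 1.89e-11), while the change at low shear was -0.04 (adjusted p = 0.821). The latter depended on replicate 2 of low shear, which stood apart from its group: without it Id2 was called lower at low shear. Without replicate 3 of low shear, Id1 was called higher there. Id3 was at 67.0, 65.3 and 66.0 CPM in static, 70.2, 89.8 and 67.3 CPM in low shear and 36.9, 31.9 and 37.7 CPM in high shear libraries. It fell at high shear (-0.90 ± 0.09, adjusted p = 6.61e-08), and its small difference at low shear (0.20, adjusted p = 0.0441) was lost without any 1 of the 3 static replicates (adjusted p between 0.0780 and 0.108) and without replicate 2 of low shear, where it was 0.06 (adjusted p = 0.413). Id1 was at 22.0, 18.2 and 19.3 CPM in static, 20.6, 27.5 and 17.6 CPM in low shear and 16.8, 18.3 and 17.1 CPM in high shear libraries, which overlapped, with no call against static. Smad6 was at 8.99, 6.07 and 7.83 CPM in static, 9.06, 9.38 and 9.22 CPM in low shear and 8.91, 11.1 and 9.61 CPM in high shear libraries. Its log2 differences from static were 0.28 and 0.39 (adjusted p = 0.0393 and 0.00522), and without replicate 2 of static both were lost (0.13 and 0.24, adjusted p = 0.384 and 0.100). The former was also lost without replicate 3 of static or any 1 of the low shear replicates (adjusted p between 0.0544 and 0.0836), and the latter without replicate 2 of high shear (0.29, adjusted p = 0.0626). Smad9 was at 3.14, 4.0 and 2.85 CPM in static, 3.84, 5.05 and 3.84 CPM in low shear and 2.62, 2.93 and 1.78 CPM in high shear libraries, and static overlapped both flow groups. Its difference at high shear (-0.45, adjusted p = 0.0471) fell short of the threshold without replicate 1 or 2 of static or replicate 1 or 3 of high shear (-0.27 to -0.50, adjusted p between 0.0518 and 0.278) and with DESeq2 (-0.49, adjusted p = 0.0923). Smad1 rose at both shears (0.62 and 0.47), and Smad5 did not pass the test at either.

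Among the BMP ligands, receptors and modulators of orpk cells, Bmper, which binds BMPs outside the cell and can block or aid their signal, was at 88.9, 91.3 and 87.1 CPM in static, 98.7, 91.8 and 97.6 CPM in low shear and 191, 189 and 194 CPM in high shear libraries. It rose at high shear without overlap (1.10 ± 0.04, adjusted p = 5.25e-25). Grem1 (gremlin), an extracellular BMP antagonist, was at 392, 379 and 369 CPM in static, 197, 185 and 178 CPM in low shear and 432, 433 and 427 CPM in high shear libraries. The low shear libraries were far below both other groups (-1.03 ± 0.04 against static, adjusted p = 2.89e-24), and high shear was slightly above static (0.18 ± 0.04, adjusted p = 9.07e-05). Bambi, a decoy receptor without a kinase, was at 1.71, 2.20 and 1.68 CPM in static, 3.04, 4.15 and 3.65 CPM in low shear and 3.82, 3.64 and 3.26 CPM in high shear libraries, and rose at both shears (0.95 ± 0.21 and 0.93 ± 0.22, adjusted p = 0.000148 and 0.00025). Bmp6 was scarce in orpk cells, at 0.642, 0.646 and 0.586 CPM in static, 0.860, 0.782 and 1.30 CPM in low shear and 1.57, 1.64 and 1.16 CPM in high shear libraries, and rose at high shear (1.22 ± 0.31, adjusted p = 0.000616). Bmp4 was at 67.0, 63.9 and 66.0 CPM in static, 74.7, 78.7 and 75.9 CPM in low shear and 71.2, 68.2 and 71.3 CPM in high shear libraries. It was slightly higher at low shear (0.22) with no call at high shear (0.10). Acvr1 was at 81.7, 79.3 and 84.3 CPM in static, 73.7, 75.0 and 77.0 CPM in low shear and 98.1, 96.0 and 98.3 CPM in high shear libraries, and rose at high shear (0.25). Bmpr2 also rose at high shear (0.45), Bmpr1a did not pass the test there (0.01), and Acvrl1, with at most 1.24 CPM in any orpk library, had no call under flow. Nog had 3, 4 and 1 reads over the static, low shear and high shear libraries.

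The ligands of the TGF-beta arm moved apart in orpk cells. Tgfb3 was at 85.9, 93.7 and 89.7 CPM in static, 99.5, 89.1 and 87.8 CPM in low shear and 241, 241 and 262 CPM in high shear libraries. Static and low shear overlapped and high shear was far above both (1.46 ± 0.05 against static, adjusted p = 3.23e-28). Inhba was at 63.5, 66.1 and 71.2 CPM in static, 70.5, 65.8 and 75.1 CPM in low shear and 185, 193 and 186 CPM in high shear libraries, the same shape (1.49 ± 0.05, adjusted p = 2.68e-27). Tgfb2 went the other way, at 177, 176 and 173 CPM in static, 83.1, 91.5 and 74.1 CPM in low shear and 52.2, 47.0 and 51.6 CPM in high shear libraries. It fell step by step without overlap (-1.08 ± 0.05 and -1.81 ± 0.05, adjusted p = 2.75e-22 and 4.14e-29). Tgfb1 was at 70.1, 67.2 and 63.2 CPM in static, 93.9, 96.0 and 98.3 CPM in low shear and 117, 122 and 119.7 CPM in high shear libraries, and rose step by step (0.52 ± 0.05 and 0.84 ± 0.05, adjusted p = 1.81e-12 and 3.85e-19). Per kilobase of exon, at high shear in orpk cells, Tgfb3 had the highest mean level of the 3 TGF-beta ligands (73.3 CPM per kb, against 23.7 for Tgfb1 and 8.68 for Tgfb2), whereas in static orpk cells Tgfb2 (30.3) and Tgfb3 (26.5) were above Tgfb1 (13.3).

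All 3 latent binding proteins of orpk cells were lowest at low shear and highest at high shear. Ltbp2 was at 39.4, 41.0 and 38.6 CPM in static, 17.6, 27.3 and 17.4 CPM in low shear and 169.7, 169.7 and 164 CPM in high shear libraries. The rise from low to high shear was 3.01 ± 0.10 (adjusted p = 1.87e-15), the largest log2 change among the 35 genes in any comparison between flow conditions of one genotype. Ltbp1 was at 201, 206 and 199.99 CPM in static, 148, 179 and 145 CPM in low shear and 278, 275 and 274 CPM in high shear libraries, with changes against static of -0.37 ± 0.07 and 0.44 ± 0.06 (adjusted p = 8.11e-05 and 4.75e-06). Ltbp3 was at 412, 421 and 396 CPM in static, 361, 409 and 359 CPM in low shear and 519, 517 and 540.4 CPM in high shear libraries. It rose at high shear (0.36). Its low shear libraries overlapped static, and the difference between them (-0.12) was lost without replicate 2 of static, or replicate 1 or 3 of low shear (-0.09 to -0.10, adjusted p between 0.0619 and 0.106). In Ltbp1, Ltbp2 and Ltbp3 alike, replicate 2 of low shear was the highest of its group.

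The receptors and Smads of the TGF-beta arm fell in part. Tgfbr3 was at 353, 349.9 and 321 CPM in static, 161, 161 and 169.6 CPM in low shear and 81.3, 83.7 and 84.4 CPM in high shear orpk libraries, falling step by step (-1.06 ± 0.04 and -2.04 ± 0.04, adjusted p = 1.54e-24 and 1.14e-33). Tgfbr2 was lower at both shears (-0.63 and -0.26), and Tgfbr1 was slightly higher at low shear alone as far as the test goes (0.15, against 0.08); the call of Tgfbr1 was lost without replicate 2 of static (0.11, adjusted p = 0.0738). Smad3 was at 110.0, 109.9 and 113 CPM in static, 70.0, 66.0 and 62.3 CPM in low shear and 48.2, 46.2 and 48.1 CPM in high shear libraries, and fell step by step without overlap (-0.75 ± 0.05 and -1.23 ± 0.05, adjusted p = 1.19e-17 and 3.22e-24). Smad2, the other effector of TGF-beta, rose at both shears (0.24 and 0.68). Smad4 was lower at low shear (-0.30) and had no call at high shear (0.09).

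Skil, Smad7 and Ski all rose at high shear in orpk cells. Skil was at 77.1, 75.4 and 81.1 CPM in static, 107, 79.6 and 114 CPM in low shear and 235, 238 and 235 CPM in high shear libraries (1.60 ± 0.09 at high shear, adjusted p = 5.63e-10), and replicate 2 of low shear was the lowest of its group and overlapped static. Smad7 was at 28.7, 24.4 and 27.2 CPM in static, 27.8, 27.5 and 30.5 CPM in low shear and 54.1, 60.2 and 59.2 CPM in high shear libraries. Static and low shear overlapped and high shear was above both (1.11 ± 0.07, adjusted p = 1.22e-18). Ski rose at high shear by 0.57, and Fst fell at both shears (-0.60 and -0.60). Tgfbi was at 96.3, 95.7 and 102 CPM in static, 92.4, 111 and 97.0 CPM in low shear and 31.1, 30.4 and 33.1 CPM in high shear libraries. It fell at high shear alone (-1.64 ± 0.06, adjusted p = 9.86e-26; 0.04 at low shear, adjusted p = 0.56).

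**Figure D4:**
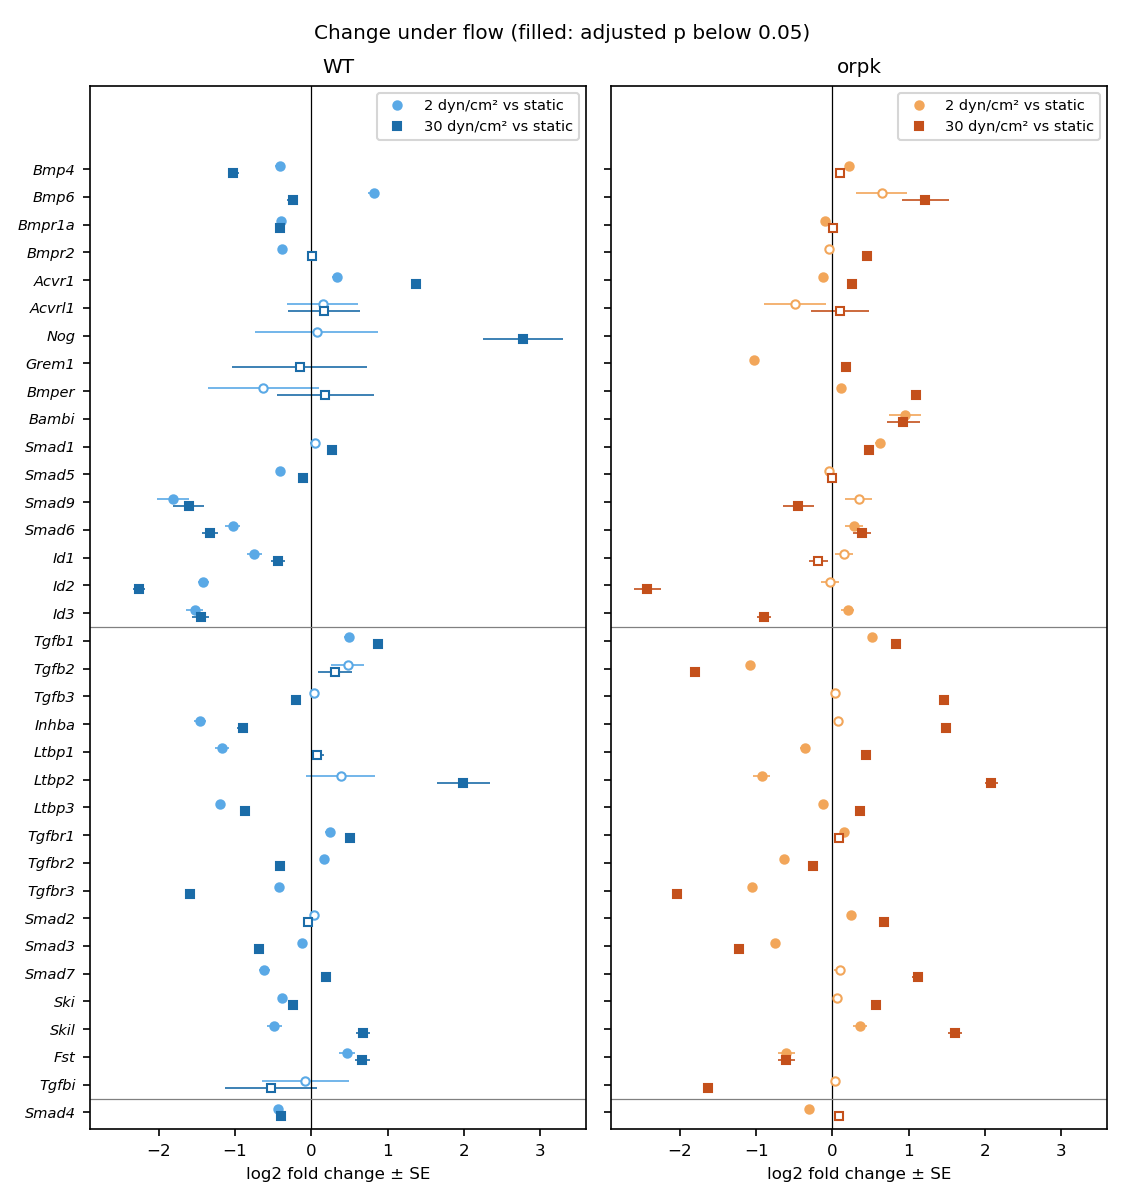
Log2 fold change (± SE) of each gene at 2 and 30 dyn/cm2 against static, in WT cells (left) and orpk cells (right); filled symbols passed an adjusted p of 0.05, genes whose group total was at most 3 reads are not drawn, and grey lines part the BMP arm (top), the TGF-beta arm and Smad4. Id1, Id2, Id3, Smad6 and Smad9 lie left of 0 at low shear in WT cells and between -0.04 and 0.34 in orpk cells.

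The flow response itself was compared between the genotypes with an interaction term, which is the log2 change in orpk cells minus that in WT cells. At low shear against static, 17 of the 35 genes had a higher and 7 a lower change in orpk cells (48.6% and 20%, beside 27.1% and 25.4% of all genes). In the BMP arm the change was higher for 10 of 17 and lower for 1, and its median was 0.61 over 14 genes, beside -0.01 over all tested genes. At high shear against static, 18 of 35 were higher and 7 lower (51.4% and 20%, beside 30.6% and 26.9%). For the step from low to high shear, 12 were higher and 11 lower (34.3% and 31.4%, beside 25% and 21.5%), and in the BMP arm 3 were higher and 8 lower. This last term is the difference of the first 2, and all 3 share libraries. Scaled by library totals, the splits were 16 higher and 7 lower at high shear and 9 higher and 11 lower for the step.

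The largest differences in the BMP arm at low shear were those of Smad9 (2.16 ± 0.27), Id3 (1.73 ± 0.14), Id2 (1.38 ± 0.14) and Smad6 (1.31 ± 0.16; adjusted p at most 1.68e-08). These are the genes that fell in WT cells, as described above. At high shear Smad6 (1.71 ± 0.16), Bmp6 (1.47 ± 0.32), Smad9 (1.16 ± 0.29) and Bmp4 (1.12 ± 0.09) had the higher change in orpk cells, and Acvr1 (-1.11 ± 0.07) the lower (adjusted p at most 0.000843). Id2 did not pass the interaction test at high shear (-0.16, adjusted p = 0.554), where it fell in both genotypes. For the step from low to high shear, Id2 (-1.54 ± 0.21), Id3 (-1.18 ± 0.16) and Smad9 (-1.0 ± 0.33) changed more negatively in orpk cells and Bmp6 (1.64 ± 0.28) more positively (adjusted p at most 0.0108).

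In the TGF-beta arm, Inhba had the largest interaction at high shear (2.4 ± 0.09, adjusted p = 1.01e-24), since it rose in orpk and fell in WT cells, and it also differed at low shear (1.53 ± 0.10). Tgfb3 differed at high shear against static and for the step (both 1.67, adjusted p at most 8.87e-22) and not at low shear, where both genotypes had log2 changes of 0.03 to 0.04. Tgfb2 had lower changes in orpk cells at both shears (-1.56 ± 0.22 and -2.11 ± 0.23), and so had Fst (-1.07 ± 0.15 and -1.27 ± 0.15; adjusted p at most 9.18e-08 for both genes). Ltbp3 had higher ones (1.07 ± 0.06 and 1.22 ± 0.06, adjusted p at most 1.15e-17). Ltbp2 differed at low shear (-1.31 ± 0.46, adjusted p = 0.0242) and for the step (1.41 ± 0.38, adjusted p = 0.00517). The former call was lost on leaving out any of 5 WT libraries (replicate 2 or 3 of static, or any replicate of low shear), with values between -1.16 and -1.41 and adjusted p between 0.0565 and 0.0796. Tgfb1, by contrast, had interaction values of 0.03, -0.03 and -0.06, with SE between 0.07 and 0.08 and no call.

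The WT and orpk contrasts share no libraries, so calls can also be set side by side. At low shear against static, 5 genes of the BMP arm were called in both genotypes and 4 of them in opposite directions (Acvr1, Bmp4, Id3 and Smad6, of which Acvr1, Id3 and Smad6 lost the orpk call on leaving out single libraries; for Acvr1 replicate 3 of static or replicate 1 of low shear, -0.10 with adjusted p = 0.0804 and 0.0617), as were 31.1% of the 5354 genes called in both over the whole table. In the TGF-beta arm 9 were called in both and 3 in opposite directions (Fst, Skil and Tgfbr2), where the orpk call of Skil was lost when the compared groups were fitted alone (0.36, adjusted p = 0.103). At high shear against static, 12 genes of the TGF-beta arm were called in both, 7 in the same direction (Ltbp2, Skil, Smad3, Smad7, Tgfb1, Tgfbr2 and Tgfbr3) and 5 in opposite ones (Fst, Inhba, Ltbp3, Ski and Tgfb3), beside 29.5% in opposite directions over all genes. In the BMP arm 5 of 7 had the same direction (Acvr1, Id2, Id3, Smad1 and Smad9). From low to high shear, 10 of the 12 TGF-beta genes called in both had the same direction and 2 did not (Tgfb3 and Tgfbr2), as did not 2 of 6 in the BMP arm (Id1 and Smad1) and 28.5% of the 3054 genes called in both over the whole table. The WT call of Id1 was lost in 3 of the 6 fits that left out 1 library (adjusted p up to 0.0868). Its orpk call was lost in 3 of 6 (up to 0.215), and the orpk call of Smad1 in 2 of 6 (up to 0.157).

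Between the genotypes at the same shear, most genes differed, as did most genes of the whole table. In static cells 20 of the 35 were higher in orpk cells and 10 lower (57.1% and 28.6%, beside 44.4% and 43.4% of all genes). At low shear 24 were higher and 7 lower (68.6% and 20%, beside 44.6% and 42.9%), and at high shear 26 were higher and 8 lower (74.3% and 22.9%, beside 44.9% and 42%). The TGF-beta arm accounted for 13, 14 and 15 of those that were higher, with median log2 differences of 1.02, 1.27 and 1.35, beside 0.01, 0.02 and 0.04 over all tested genes. In the BMP arm 7, 10 and 11 were higher and 6, 3 and 5 lower. The split between the arms depends on the genes listed, since the other pathway genes described below had a different one. Scaled by library totals, which moved the median of all genes by -0.22, -0.22 and -0.31, 18 were higher and 14 lower in static cells, 21 and 10 at low shear, and 22 and 9 at high shear. Fibroblast and smooth muscle markers differed between the same libraries by the amounts given above, and their part in these differences was not tested.

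Grem1, Bmper and Tgfbi differed most at each shear. Grem1 had 4, 2 and 4 reads in all over the WT static, low shear and high shear libraries, and mean levels of 380.1, 186 and 431 CPM in orpk cells. At low shear this is a ratio of 4978, with a 95% exact counting interval from 1378 to 41115. Bmper had a mean of at most 0.169 CPM in any WT group and of 89.1 ± 2.12, 96.1 ± 3.71 and 191 ± 2.47 CPM (SD, n = 3) in orpk cells (log2 differences 9.15 ± 0.13, 9.89 ± 0.13 and 10.07 ± 0.11). Tgfbi had at most 0.276 CPM in any WT group and 97.9 ± 3.38, 100.2 ± 9.90 and 31.5 ± 1.41 CPM in orpk cells (8.43, 8.54 and 7.32). Bambi had 81 against 2 reads in static and 174 against 3 reads at low shear, ratios of 44.1 (interval 11.8 to 370.4) and 64.7 (21.8 to 317). Nog went the other way at high shear, with 41 reads in WT and 1 read in orpk cells, a ratio of 31.2 (5.30 to 1263).

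Among ligands and latent binding proteins, Tgfb2 was higher in orpk cells by 6.61 ± 0.09 in static, 5.06 ± 0.09 at low and 4.50 ± 0.11 at high shear on the log2 scale. Bmp6 was lower in orpk cells by -5.11, -5.28 and -3.64, and Bmp4 was higher by 1.48, 2.12 and 2.61. Per kilobase of exon, Bmp4 and Bmp6 stood at 10.4 and 5.57 CPM in static WT cells and at 29.2 and 0.160 in static orpk cells. Ltbp2 (5.30, 3.99 and 5.39), Ltbp1 (2.01, 2.81 and 2.37) and Inhba (1.19, 2.72 and 3.59) were higher in orpk cells at all 3 shears, as were Tgfb1, Tgfb3 and Ltbp3. The adjusted p of every value in this paragraph was at most 2.39e-12.

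Receptors and Smads also differed. Acvr1 (2.23, 1.77 and 1.11), Tgfbr1 (1.47, 1.38 and 1.05) and Tgfbr3 (2.44, 1.8 and 1.99) were higher in orpk cells at all 3 shears. Tgfbr2 was higher in static (0.89) and at high shear (1.04), and at low shear its sign depended on the scaling (0.09, or -0.13 with library totals). So did that of Bmpr1a at low and high shear (0.08 and 0.20, or -0.14 and -0.12), and its call at low shear was lost without replicate 3 of orpk or replicate 1 or 2 of WT low shear (0.06 to 0.09, adjusted p between 0.0529 and 0.110). Smad3 (-0.27, -0.91 and -0.82) and Smad4 (-0.76, -0.63 and -0.27) were lower in orpk cells. Per kilobase in static cells, Smad4 and Bmpr1a were the highest of the receptors and Smads in WT cells (44.6 and 44.3 CPM per kb), and Tgfbr2 and Tgfbr3 in orpk cells (61.9 and 52.1).

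Tgfbr1 was at 39.0, 40.7 and 35.9 CPM in static, 42.5, 45.7 and 47.8 CPM in low shear and 51.7, 54.1 and 57.4 CPM in high shear WT libraries. The orpk libraries were at 106, 101 and 113 CPM in static, 123, 115 and 116 CPM at low shear and 113, 114 and 112 CPM at high shear. Every orpk library of Tgfbr1 lay above every WT library. Tgfbr2 was at 279, 268 and 275 CPM in static, 299, 310.4 and 313 CPM in low shear and 211, 205 and 203 CPM in high shear WT libraries. The orpk libraries were at 495, 505 and 519 CPM in static, 334, 325 and 323 CPM at low shear and 420.5, 425 and 424 CPM at high shear. On this scale the WT and orpk libraries of Tgfbr2 did not overlap at any shear. They were closest at low shear, where the sign of the difference depended on the scaling, as given above.

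Ski and Fst, 2 inhibitors, differed in opposite ways under flow. Ski was at 204, 202 and 198 CPM in static, 154, 156 and 150.4 CPM in low shear and 171, 172 and 169.5 CPM in high shear WT libraries. The orpk libraries were at 285, 294 and 301 CPM in static, 313, 299 and 308 CPM at low shear and 429, 441 and 438 CPM at high shear. Ski was thus higher in orpk cells at all 3 shears (0.54, 1.00 and 1.35). Fst was at 10.2, 8.89 and 11.1 CPM in static, 13.5, 15.0 and 13.5 CPM in low shear and 16.3, 17.1 and 14.8 CPM in high shear WT libraries. The orpk libraries were at 11.8, 13.6 and 13.7 CPM in static, 7.21, 10.4 and 7.98 CPM at low shear and 9.06, 7.86 and 8.84 CPM at high shear. Fst was lower in orpk cells at low and high shear (-0.70 and -0.91). In static cells it was higher by 0.37, or by 0.15 (adjusted p = 0.175) when scaled by library totals.

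The Id genes differed from each other between genotypes. Id2 was lower in orpk cells at all 3 shears (-2.73 ± 0.09, -1.35 ± 0.10 and -2.89 ± 0.16), whereas Id3 was higher (0.66 ± 0.09, 2.39 ± 0.10 and 1.21 ± 0.12; adjusted p at most 1.3e-06 for both genes). Id1 was lower in static (-0.93) and at high shear (-0.68) and did not pass the test at low shear (-0.03). Smad6 was lower in static orpk cells (-1.22 ± 0.11), did not pass at low shear (0.09), and was higher at high shear (0.49 ± 0.12), or 0.18 with adjusted p = 0.161 when scaled by library totals. Smad9 did not pass in static cells (-0.29) and was higher under both shears (1.87 and 0.87).

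**Figure D5:**
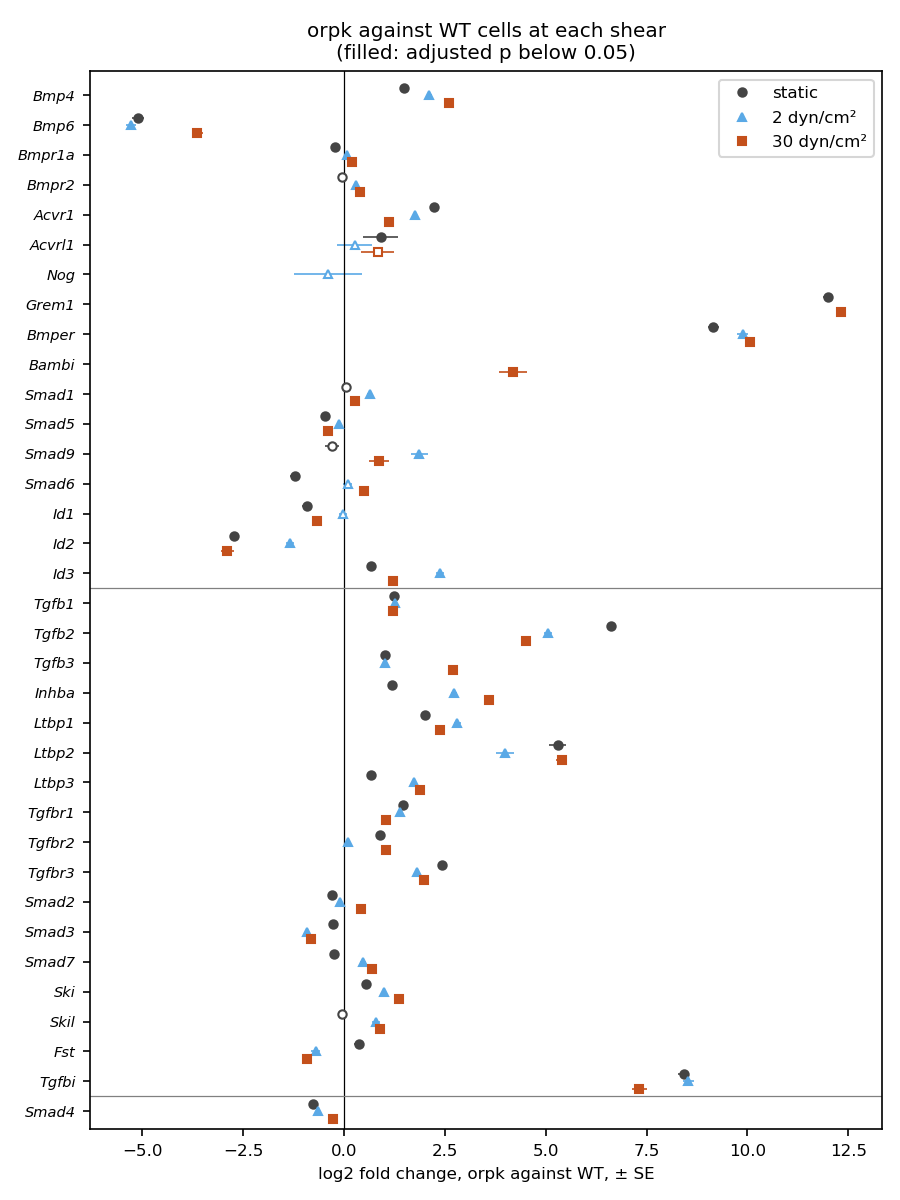
Log2 fold change (± SE) of orpk against WT cells for each gene in static cells, at 2 and at 30 dyn/cm2; filled symbols passed an adjusted p of 0.05, and genes whose group total was at most 3 reads are not drawn. Grem1, Bmper, Tgfbi, Tgfb2 and Ltbp2 lie farthest to the right, and Bmp6 and Id2 to the left.

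A list of 48 other genes of both pathways, of which 35 were tested, was counted in the same way, with 12 tested on the BMP side and 23 on the TGF-beta side. In WT cells 4 of the 35 rose and 15 fell at low shear (11.4% and 42.9%, beside 32.6% and 30.3% of all genes), 10 rose and 16 fell at high shear (28.6% and 45.7%, beside 34.1% and 32.7%), and 10 rose and 10 fell from low to high shear (28.6% each, beside 15.9% and 17.2%). At low shear in WT cells 0 of 12 on the BMP side rose and 4 fell (33.3%, near the 30.3% of all genes). On the TGF-beta side 4 of 23 rose and 11 fell (17.4% and 47.8%). In orpk cells 9 rose and 16 fell at low shear (25.7% and 45.7%, beside 30.9% and 31.1%), 16 rose and 11 fell at high shear (45.7% and 31.4%, beside 36.5% and 33.3%), and 15 rose and 8 fell from low to high (42.9% and 22.9%, beside 32.1% and 31.5%). Ccn2, a matricellular protein, and Pmepa1, a negative regulator of TGF-beta signalling, are known TGF-beta targets. Ccn2 rose at both shears in both genotypes, by 2.64 ± 0.09 in WT and 5.40 ± 0.11 in orpk cells at high shear, and Pmepa1 rose at high shear by 2.36 ± 0.06 and 3.27 ± 0.06.

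Bmp7, a ligand, Itgb6, a subunit of an integrin that activates latent TGF-beta, and Fstl3, a follistatin-like activin inhibitor, fell at low shear in WT cells (-1.58, -1.23 and -1.50), and Bmp7 and Itgb6 also fell at high shear (-2.14 and -2.20), where Fstl3 rose by 2.02 over low shear. In orpk cells Lrrc32, which presents latent TGF-beta at the cell surface, Inha, the inhibin alpha chain, and Fstl3 fell at low shear (-1.38, -0.96 and -0.99). Atoh8, a transcription factor known as a BMP target in endothelium, fell at high shear (-2.19 ± 0.24) and from low to high shear (-2.49 ± 0.22). The interaction was past the test for 11 higher and 4 lower genes at low shear (Ccn2 1.43, Acvr2b 1.14 and Tgif2 -0.57 among them), 12 and 7 at high shear (Ccn2 2.75, Atoh8 -1.49 and Thbs1 1.34 among them) and 10 and 6 for the step. These are 31.4% and 11.4% (beside 27.1% and 25.4% of all genes), 34.3% and 20% (beside 30.6% and 26.9%) and 28.6% and 17.1% (beside 25% and 21.5%). On the BMP side the low shear interaction was higher for 1 of 12 genes and lower for 1 (8.33% each), unlike in the BMP arm above. On the TGF-beta side it was higher for 10 of 23 and lower for 3 (43.5% and 13%). Between the genotypes 20 were higher and 15 lower in static cells, 21 and 14 at low shear, and 23 and 11 at high shear (57.1% and 42.9%, 60% and 40%, and 65.7% and 31.4%, beside 44.4% and 43.4%, 44.6% and 42.9%, and 44.9% and 42% of all genes). On the TGF-beta side 11 of 23 were higher and 12 lower in static cells, 12 and 11 at low shear, and 14 and 8 at high shear. On the BMP side 9 of 12 were higher and 3 lower at each shear. In static cells Inha, with 0 reads in WT cells, was at least 139-fold higher and Bmpr1b, a type I BMP receptor, at least 53.7-fold higher in orpk cells, counted against 3 reads over the WT group. Bmp7, with 0 reads in orpk cells, was at least 107-fold lower there by the same floor. The 95% exact lower limits of these ratios, which count the error of both groups, were 113, 43.2 and 86.4. Inhbb, the activin B chain, had 1210 reads in WT and 2 in orpk cells, a ratio of 556 (interval 153 to 4592).

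By the GENCODE annotation of GRCm38, 11 of the 36 genes share exon sequence with another gene, 9 on the opposite strand and 2 on the same strand. Bmp6 (chr13:38345107-38500302, plus strand) overlaps Txndc5, a gene of the table on the opposite strand. The library kit keeps strand, but whether the counting used it is not given in the sources used here, so reads in such overlaps may be assigned to either partner. Of the other genes on which the results turn, Id2 lies at chr12:25093799-25097140 and Smad6 at chr9:63953076-64022059, both on the minus strand, Smad9 at chr3:54755582-54801257 and Inhba at chr13:16011851-16031621, both on the plus strand, and Tgfb3 at chr12:86056745-86079041 on the minus strand.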

How the data were processed

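Strand-specific mRNA libraries (TruSeq, single reads of 50 nt) were made from 18 samples, per the labels' protocols. The deposited values are raw read counts per Ensembl gene; per the submitters' processing notes, the tools used were CASAVA 1.8.2, STAR 2.4 and featureCounts 1.4.6 with the build GRCm38. The strand setting and annotation of the counting are not given in the sources used here. Counts were tested with edgeR 4.0.16 (TMM scaling, filterByExpr, robust quasi-likelihood fit of 6 group means, 12 residual degrees of freedom, R 4.3.3), and p-values were adjusted by Benjamini and Hochberg over all 13058 genes of each comparison, with 0.05 as the threshold. The same steps were tested on simulated data, in which genes were changed in the WT low shear group alone. These data held no difference between the genotypes, so they do not test the scaling or the calls between genotypes. Gene symbols, positions and exon lengths came from GENCODE for GRCm38.

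The genes and lists were chosen with earlier results of these data known. Values in every library are given for genes with a mean of at least 1 CPM that differed by more than 1 on the log2 scale between 2 groups or in an interaction; of the other pathway genes, up to 4 per comparison with the largest log2 changes were named. For a gene whose group total was at most 3 reads, the text gives a ratio with a 95% exact interval, or a bound against 3 reads over the group, which leaves out the counting error of the higher group; both cover counting error only. Alternatives were RLE size factors, scaling by library totals, testing without the filter on low counts, DESeq2 1.42.0, a fit of the groups compared and no others, a block for the replicate number, and each library left out. Replicate numbers did not pair the samples. Some items are not reported here.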

Additional observations from a re-analysis of the deposited data

Results flagged for a closer look

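The flow responses given here differed between orpk and WT cells by more than 1 on the log2 scale and passed edgeR's interaction test. At low shear against static the differences, orpk minus WT, were 2.16 for Smad9, 1.73 for Id3, 1.38 for Id2 and 1.31 for Smad6 in the BMP arm. In the TGF-beta arm they were 1.53 for Inhba, 1.07 for Ltbp3, -1.07 for Fst, -1.31 for Ltbp2 and -1.56 for Tgfb2.

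At high shear against static they were 1.71 for Smad6, 1.47 for Bmp6, 1.16 for Smad9, 1.12 for Bmp4 and -1.11 for Acvr1. In the TGF-beta arm they were 2.4 for Inhba, 1.67 for Tgfb3, 1.22 for Ltbp3, -1.27 for Fst and -2.11 for Tgfb2. From low to high shear they were 1.67 for Tgfb3, 1.64 for Bmp6, 1.41 for Ltbp2, -1.0 for Smad9, -1.18 for Id3 and -1.54 for Id2.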

How the results depend on the processing

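Over the 12 comparisons, the number of the 35 genes past the threshold stayed within 1.5 times its value under every alternative run. This limit is a loose one: most comparisons had too many calls to exceed it upward, and it takes no account of direction. In orpk cells at low shear against static, 10 higher and 12 lower became 18 and 9 with library totals. Of 310 single calls, 302 were kept with RLE size factors, 288 with library totals, 308 without a filter on low counts, and 297 with DESeq2, and 301 of 309 with the compared groups alone. Leaving out 1 library at a time kept 2182 of 2280 calls and turned none. With library totals as scaling 7 values changed sign: Bmpr1a in orpk cells at low shear against static (0.0067) and from low to high shear (-0.012), Bmpr1a in orpk against WT cells at low (-0.14) and high shear (-0.12), Tgfbr2 at low shear (-0.13), and Smad1 in static cells (-0.16) and at high shear (-0.051). With the replicate number as a block, 308 of 310 calls were kept, Id3 in orpk cells at low shear (0.20, adjusted p = 0.0672) and Acvrl1 between static genotypes (0.92, adjusted p = 0.0506) were lost, and 2 were gained (Tgfb2 in WT and Smad9 in orpk cells, both at low shear against static); correlations between same-numbered samples lay between -0.052 and 0.025 over 27 pairs. Depth limits Bmp2, Nog, Bambi, Acvrl1 and Smad9, in WT cells Grem1, Bmper, Tgfbi, Ltbp2 and Tgfb2, and in orpk cells Bmp6. The interactions given for Smad9, Bmp6, Ltbp2 and Tgfb2 share this limit.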
